A study of Caenorhabditis elegans with 6 samples.

Results

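The genes described here are those named as ribosomal protein genes of the cytoplasmic ribosome in the nematode Caenorhabditis elegans. They were taken as every row of the deposited gene count table whose identifier maps to a symbol that starts with rpl- (large subunit) or rps- (small subunit). This gave 76 of 20182 genes, of which 45 were rpl- and 31 were rps- genes. Of these, 75 genes, including 44 rpl- genes, had enough reads to be tested. The exception was rpl-42 (chromosome II, 11092713 to 11094022 in the WBcel235 annotation), which had 0 counts in each of the 6 libraries. A floor of 3 counts corresponds to 0.0657 to 0.0994 CPM (counts scaled per 1000000) in these libraries, so a level below that could not have been seen. How reads that match several places were counted is not stated, so 0 counts need not mean a level below this floor. The annotation also names rpl-41.1 and rpl-41.2, which have no row among the 20182 genes and so could not be analysed.

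RNA sequencing compared embryos of 3 genotypes, each grown as 2 independent cultures. The cec-4 deletion strain (GW828) lacks a chromodomain protein known to hold chromatin with methylated histone H3 lysine 9 at the nuclear envelope. The met-2 set-25 double deletion strain (GW638) lacks both histone methyltransferases known to place that methylation. The wild-type strain was GW1. The labels do not describe the deletions further. Synchronised animals were kept in S-medium with HB101 bacteria at 20 °C until gravid, 60 to 65 h by strain, and hypochlorite then freed their embryos. Each library is therefore a bulk extract of a whole embryo population, in which fewer cells of a type and less RNA per cell cannot be told apart.

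Every protein the embryo makes is made on ribosomes, which consist of a small subunit that reads the mRNA and a large subunit that joins the amino acids. The proteins are needed in matched amounts, and their genes are among the most strongly expressed of a growing cell. A worm embryo starts out with ribosomes and ribosomal protein mRNAs loaded by its mother, and its own new ribosomes add to them later. Ribosomal RNA was depleted from these libraries, so the gene counts given here do not measure ribosomal RNA.

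Library totals over genes were 30171874 to 45677214 counts, and the tested ribosomal protein genes had 800 to 50050 counts in a library. The deleted genes followed the labels. cec-4 had 99.7 and 77.9 CPM in cec-4 embryos, against 282 and 272 CPM in wild-type embryos. met-2 and set-25 had 80.3 and 72.0 CPM and 28.4 and 23.1 CPM in met-2 set-25 embryos, against 400 and 358 CPM and 113 and 95.3 CPM in wild-type embryos. Maternal pos-1, a regulator of early cell fates, had 195 to 266 CPM over the 6 libraries, and the endoderm gene end-1 had 14.5 to 24.5 CPM. The muscle myosin gene myo-3 had 293 to 581 CPM and the cuticle collagen gene sqt-3 had 272 to 677 CPM, so transcripts of later tissues were among the reads of these extracts labelled early embryo. Of the deposited window counts, 9.93% to 38.05% came from 25 windows at the ribosomal RNA repeats on the end of chromosome I, with 31.3% and 9.93% in the cultures of met-2 set-25 alone, and the part of this spread in the values given here was not tested. The yolk protein genes of the adult intestine summed to 0.295 to 0.744 CPM, and the adult collagen gene col-19 had at most 1 count.

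Ribosomal protein genes took a similar share of the gene counts in all 3 genotypes. The share was 1.90% and 1.78% in cec-4 cultures, 1.90% and 2.20% in met-2 set-25 cultures and 1.90% and 2.13% in wild-type cultures. The first culture of each genotype had the same share to 3 digits, and the second cultures were spread to both sides of it. With 1 more digit the first cultures had 1.897% in cec-4, 1.898% in met-2 set-25 and 1.904% in wild-type. Both cec-4 shares were thus below those of all other cultures, the first of them only narrowly. As means these were 1.84 ± 0.0809% in cec-4, 2.05 ± 0.212% in met-2 set-25 and 2.02 ± 0.16% in wild-type (SD, n = 2 each), and each mutant's difference from wild-type was no larger than the wild-type cultures' own difference. Counting error was small beside this, since the 95% Wilson interval of a share reached at most 0.00487 percentage points to either side. The share is given with no p, as a description of a sum over genes chosen with earlier results known. An exact permutation of 2 cultures against 2 cannot give a p below 0.333.

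With library sizes scaled by edgeR's TMM method, the share became 1.92% and 1.90% in cec-4 cultures, 1.90% and 2.05% in met-2 set-25 and 1.90% and 2.12% in wild-type. This scaling brought the cec-4 cultures together, while the second cultures of met-2 set-25 and wild-type stayed above their first. Per coding length, the tested genes held 4.90% and 4.96% of the total in TPM (counts per coding base, scaled to 1000000) in cec-4 cultures, 4.79% and 5.37% in met-2 set-25 and 4.79% and 5.54% in wild-type. On this scale the highest share was in a wild-type culture and the lowest shares lay in met-2 set-25 and wild-type cultures, so the genotypes overlapped.

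**Figure D1:**
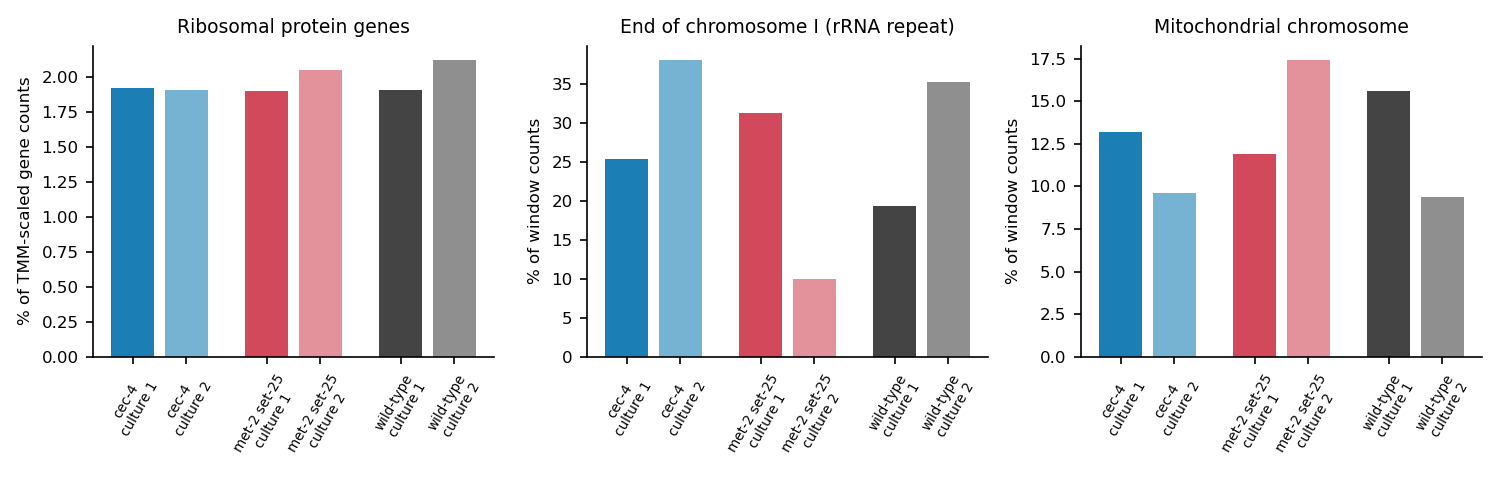
Share of TMM-scaled gene counts held by ribosomal protein genes, with 1 bar for each of the 6 cultures (darker, culture 1). The other panels give the shares of window counts from the end of chromosome I (ribosomal RNA repeats) and from the mitochondrial chromosome. The share of ribosomal protein genes was 1.90% to 1.92% in culture 1 and 1.90% to 2.12% in culture 2.

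The balance of the subunits hardly moved. Summed CPM of the rpl- genes was 1.29 and 1.34 times that of the rps- genes in cec-4 cultures, 1.31 and 1.26 times in met-2 set-25 cultures and 1.27 and 1.30 times in wild-type cultures. The ranges of the 3 genotypes overlapped.

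Levels per coding length spread 17.8-fold over the 75 genes, although the ribosome holds its proteins in nearly equal numbers. That equality does not hold gene by gene for the pairs of copies described below. Mean TPM over the 6 libraries ran between 118.8 and 2121, with a median of 527. The rpl- genes had a median of 515 TPM (120 to 1973) and the rps- genes one of 541 TPM (118.8 to 2121). Of the 100 genes of highest mean TPM in the whole table, 20 were ribosomal protein genes, and 68 were among the first 1000. Levels showed little relation to coding length over the 75 genes (Spearman's rho = -0.06, n = 75), which all share the same 6 libraries.

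Highest was rps-23 (chromosome IV, 12390298 to 12391053), whose product sits at the decoding centre of the small subunit. It had 2108 and 1811 TPM in cec-4, 2142 and 2131 TPM in met-2 set-25 and 2377 and 2155 TPM in wild-type cultures. The second cec-4 culture was the lowest of the 6 and the first wild-type culture the highest. Next came rpl-32 (chromosome II, 9056497 to 9057085), a large subunit gene, with 1876 and 1590 TPM in cec-4, 1960 and 2282 TPM in met-2 set-25 and 2012 and 2122 TPM in wild-type cultures. Both cec-4 cultures lay below all 4 others, and the met-2 set-25 cultures lay on both sides of the wild-type ones.

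After these came rps-24, a small subunit gene mutated in some human Diamond-Blackfan anaemia families, at 1653 ± 64.4 TPM (SD, n = 6). Other genes of high level were rpl-12, whose product lies at the base of the ribosomal stalk, at 1617 ± 107 TPM and rpl-43, of the large subunit, at 1570 ± 203 TPM. rps-0, whose human counterpart is also known as the laminin receptor, had 1506 ± 224 TPM. The large subunit genes rpl-36.A and rpl-6 had 1501 ± 76.9 and 1411 ± 117 TPM. Neighbours among these 8 differed by less than the larger of their SDs, apart from rpl-32 and rps-24, whose means differed by 321 TPM.

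At the low end stood rps-22 (chromosome III, 1950535 to 1951425) with 118.8 ± 11.4 TPM and rpl-18 (chromosome IV, 13777865 to 13778809) with 120 ± 36.0 TPM. rps-27 had 126 ± 14.1 TPM, rpl-11.1 149 ± 26.1 TPM and rpl-2, whose product lies close to the peptidyl transferase centre, 155 ± 31.2 TPM. rpl-33 and rps-20 had 197 ± 58.6 and 197 ± 15.8 TPM, and rps-21 had 212 ± 26.4 TPM (SD, n = 6 each). Coding exons of rps-20 overlap an exon of another annotated gene on its own strand, and those of rpl-7A overlap one on the opposite strand. Whether the counting used strand is not stated, so the values of both genes are uncertain.

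The order of the genes was nearly the same in each genotype. Spearman's rho of mean TPM over the 75 genes was 0.991 between cec-4 and wild-type, 0.993 between met-2 set-25 and wild-type and 0.984 between met-2 set-25 and cec-4, which are descriptions over genes that share libraries and lengths. Across the 6 libraries the highest TPM of a gene was 1.32 times its lowest in the median case. The steadiest gene by this ratio was rpl-23 at 1.07, and the least steady were rpl-25.1 at 2.65, rpl-33 at 2.34, rpl-4 at 2.16 and rpl-18 at 2.15.

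**Figure D2:**
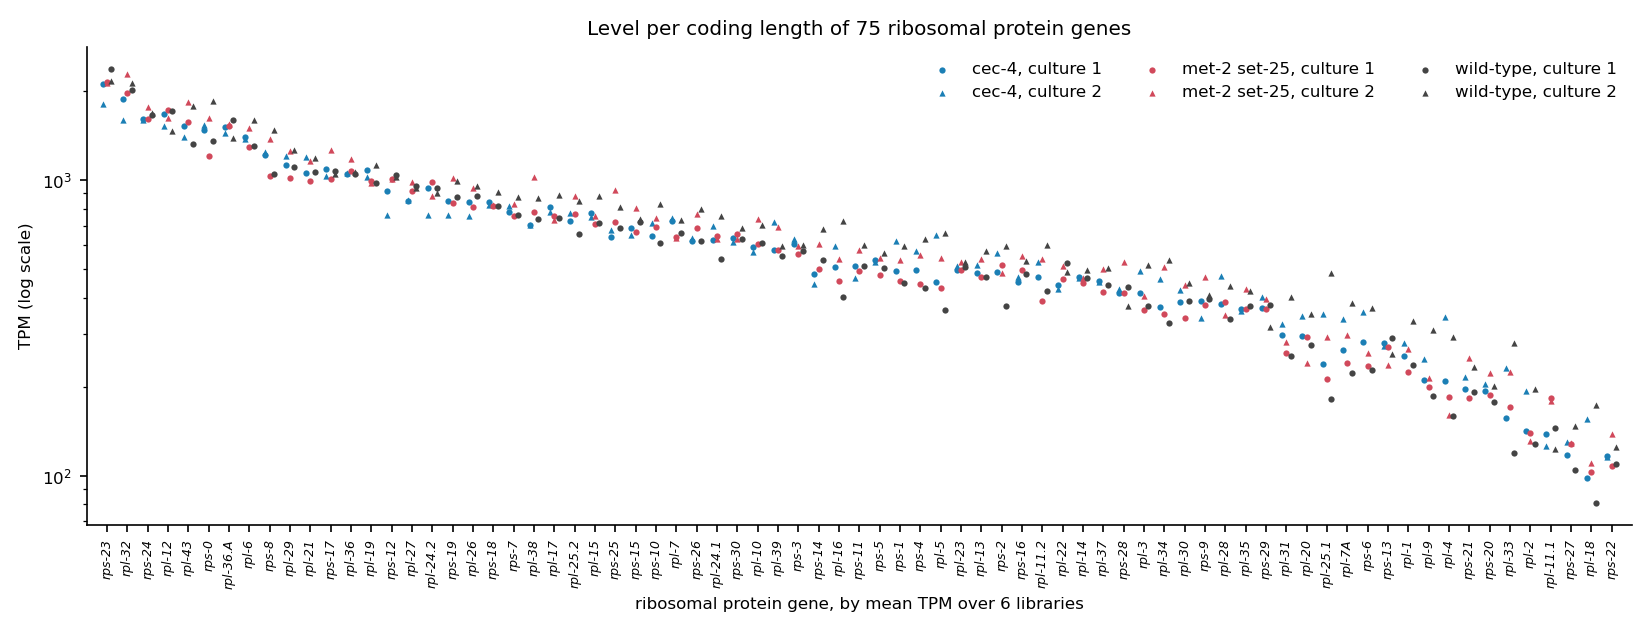
TPM on a log scale for each of the 75 tested ribosomal protein genes, ordered by mean TPM, with one symbol per culture (circles, culture 1; triangles, culture 2) coloured by genotype. Means ran from 118.8 to 2121 TPM, and the symbols of a gene lay close together beside this range.

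The genes were unevenly placed on the chromosomes. Chromosome I carried 21 of the 76 (27.6%, against 14.2% of all genes with a position). Chromosome III carried 18 (23.7%, against 13.2%), IV 17 (22.4%, against 16.2%), II 10 (13.2%, against 17.4%) and V 8 (10.5%, against 25.2%). The X chromosome carried 2 (2.63%, against 13.7% of all genes), rpl-11.2 and rpl-25.1, and each of these has a copy on an autosome. An annotated snoRNA lay inside 13 of the 76 genes, and the share over all genes was not computed. Coding widths were short, with a median of 453 bases against 1008 for all genes in the table.

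In cec-4 embryos against wild-type embryos, no ribosomal protein gene passed the test. Of the 75 genes, 0 were higher and 0 were lower by edgeR's quasi-likelihood test with Benjamini-Hochberg adjustment over 13951 genes at 0.05, where 0.00717% of all genes tested were called higher and 0% lower. At an unadjusted p under 0.05 there was 1 gene, against 0.939% of all genes tested, and DESeq2, limma voom and limma on the authors' log2 values also called 0. The median log2 fold change of the 75 genes was -0.05, beside -0.02 over all genes tested, and the values ran from -0.40 to 0.28. Of the 75 values, 16 were positive, whereas 45.3% of all genes tested had a positive value. The median was -0.05 for the rpl- genes and -0.06 for the rps- genes. Over the 75 genes it was 0.03, with 43 positive values, without wild-type culture 2 and -0.15, with 12 positive, without wild-type culture 1, so a single wild-type library set its sign. Without cec-4 culture 1, 27 values were positive, and limma on the authors' log2 values gave a median of -0.10 with 9 positive.

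The smallest p belonged to rps-14 (chromosome III, 7178991 to 7179588), a small subunit gene of the platform region. It had 178 and 159 CPM in cec-4, against 204 and 242 CPM in wild-type cultures. Both cec-4 values were below both wild-type values, and met-2 set-25 cultures, with 190 and 221 CPM, overlapped wild-type. The log2 fold change was -0.40 (SE 0.175), with an adjusted p of 0.9998 by edgeR's quasi-likelihood test and Benjamini-Hochberg adjustment, and it was -0.26 without wild-type culture 2.

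rps-12, of the beak of the small subunit, had 311 and 251 CPM in cec-4, against 363 and 336 CPM in wild-type cultures (log2 fold change -0.31, SE 0.170). rpl-32 had 612 and 501 CPM in cec-4, against 675 and 666 CPM in wild-type (log2 fold change -0.27). Both had cec-4 values below every wild-type value. rpl-22, of the large subunit, had 153 and 144 CPM in cec-4, against 187 and 164 CPM in wild-type (-0.24 on the log2 scale). rps-19, the small subunit gene most often mutated in human Diamond-Blackfan anaemia, had 301 and 261 CPM in cec-4, against 320 and 339 CPM in wild-type (-0.23). Their groups did not overlap either, but none of the 5 passed the test. Single libraries moved these values by over 1.5 times. Without cec-4 culture 2 they were -0.15 for rps-12, -0.12 for rpl-32 and -0.12 for rps-19, without cec-4 culture 1 they were -0.48 for rps-12 and -0.42 for rpl-32, and without wild-type culture 1 the value of rpl-22 was -0.14.

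The cec-4 and wild-type cultures did not overlap in CPM for 24 of the 75 genes. Of these, 20 genes (26.7%) had both cec-4 values below both wild-type values, against 10.2% of all genes tested, and 4 genes (5.33%), rps-3, rpl-39, rpl-7 and rps-20, had both above, against 11.8% of all genes tested. The 20 genes were 9 rpl- and 11 rps- genes. Their log2 fold changes ran from -0.40 to -0.06, with a median of -0.19. The small end is shown by rpl-23, with 169 and 168 CPM in cec-4, against 178 and 173 CPM in wild-type. The count of lower genes was 20 to 28 and that of higher genes 0 to 3 under other scalings of the libraries.

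In met-2 set-25 embryos against wild-type embryos, again no ribosomal protein gene passed. Of the 75, 0 were higher and 0 lower by edgeR's quasi-likelihood test, where 0.659% of all genes tested were called higher and 0.0287% lower. At an unadjusted p under 0.05 there was 1 gene, against 5.71% of all genes tested, and DESeq2, limma voom and limma on the authors' log2 values called 0. The median log2 fold change was -0.02, beside -0.03 over all genes tested, with values from -0.36 to 0.45 and 32 of 75 positive. It was -0.04 for the rpl- genes and 0.00 for the rps- genes. The direction over the 75 genes rested on single libraries, since the median was 0.07 with 55 positive values without wild-type culture 2, 0.04 with 49 positive without met-2 set-25 culture 1, -0.08 with 27 positive without wild-type culture 1 and -0.07 with 20 positive without met-2 set-25 culture 2. On the authors' log2 values limma gave 0.02 with 43 positive.

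The largest value was that of rpl-11.1 (chromosome V, 3585312 to 3586064), a copy of the large subunit gene whose product binds the 5S ribosomal RNA together with that of rpl-5. It had 89.5 and 84.1 CPM in met-2 set-25, against 70.8 and 56.4 CPM in wild-type cultures. Both met-2 set-25 values were above both wild-type values, and above the 66.0 and 57.8 CPM of the cec-4 cultures. The log2 fold change was 0.45 (SE 0.188), with an adjusted p of 0.825 by edgeR's quasi-likelihood test.

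rpl-4, whose product lines the exit tunnel of the large subunit, had 158 and 133 CPM in met-2 set-25, against 137 and 236 CPM in wild-type (log2 fold change -0.36, SE 0.299). The groups overlapped, as they did for the other 3 genes of small p. These were rps-28, near the mRNA exit, with 67.7 and 83.5 CPM in met-2 set-25, against 71.5 and 57.5 CPM in wild-type (0.23 on the log2 scale), and rpl-31 and rps-6. rpl-31, near the tunnel exit, had 79.1 and 83.1 CPM in met-2 set-25, against 77.8 and 115 CPM in wild-type (-0.25). rps-6, whose product is phosphorylated by S6 kinase, had 143 and 154 CPM in met-2 set-25, against 140 and 212 CPM in wild-type (-0.25). For rpl-4, rpl-31 and rps-6 the high wild-type value came from culture 2, and without that culture the log2 fold changes were 0.10, 0.07 and 0.10, while without wild-type culture 1 they were -0.70, -0.50 and -0.52. The value of rpl-4 was -0.24 without met-2 set-25 culture 2. That of rps-28 was 0.07 without met-2 set-25 culture 2, 0.10 without wild-type culture 2, 0.38 without met-2 set-25 culture 1 and 0.39 without wild-type culture 1.

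Few genes separated these cultures. Both met-2 set-25 values were above both wild-type values for 3 genes (4%), rpl-39, rpl-36 and rpl-11.1, against 14.5% of all genes tested. They were below for 3 genes (4%), rpl-14, rpl-7 and rps-18, against 12.7% of all genes tested. Under other scalings of the libraries 3 to 4 genes were above and 1 to 6 below.

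Between the mutants, no ribosomal protein gene passed. In met-2 set-25 embryos against cec-4 embryos, 0 of the 75 were higher and 0 lower by edgeR's quasi-likelihood test, where 0.609% of all genes tested were called higher and 0.0287% lower. At an unadjusted p under 0.05 there was 1 gene, against 10.2% of all genes tested, and DESeq2, limma voom and limma on the authors' log2 values called 0. The median log2 fold change was 0.05, beside 0.01 over all genes tested, and the values ran from -0.64 to 0.49. The subunits had medians of 0.10 for the rps- genes, with 22 of 31 positive, and 0.00 for the rpl- genes, with 21 of 44 positive. Without met-2 set-25 culture 2 the median over the 75 genes was -0.02, with 34 positive values, and without met-2 set-25 culture 1 it was 0.12, with 54 positive. It was 0.03 without cec-4 culture 1, 0.10 with upper quartile scaling and 0.15 with limma on the authors' log2 values.

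rpl-11.1 had the smallest p here too, with a log2 fold change of 0.49 (SE 0.188, adjusted p = 0.44 by edgeR's quasi-likelihood test). rpl-38, a large subunit gene known in mice for its part in translating Hox mRNAs, had 136 and 173 CPM in met-2 set-25, against 121 and 116 CPM in cec-4 cultures (0.38 on the log2 scale). rps-25, known for its role in initiation at internal ribosome entry sites, had 210 and 262 CPM in met-2 set-25, against 183 and 186 CPM in cec-4 (0.36). rpl-32 had 655 and 737 CPM in met-2 set-25, against 612 and 501 CPM in cec-4 (0.32). Each of these groups was apart, with every met-2 set-25 value above every cec-4 value. rpl-4 went the other way, with 158 and 133 CPM in met-2 set-25, against 175 and 278 CPM in cec-4 (log2 fold change -0.64, SE 0.300). None of the 5 passed the test. Without cec-4 culture 2 the values were -0.28 for rpl-4 and 0.18 for rpl-32, and without met-2 set-25 culture 2 they were 0.20 for rpl-38 and 0.19 for rps-25.

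Both met-2 set-25 values were above both cec-4 values for 23 of the 75 genes (30.7%), against 23.7% of all genes tested. For 6 genes (8%), rpl-3, rpl-4, rpl-7, rpl-31, rps-3 and rps-6, both were below, against 21.2% of all genes tested. These counts depended on how the libraries were scaled, with 20 to 35 genes above and 2 to 7 below under the other scalings.

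**Figure D3:**
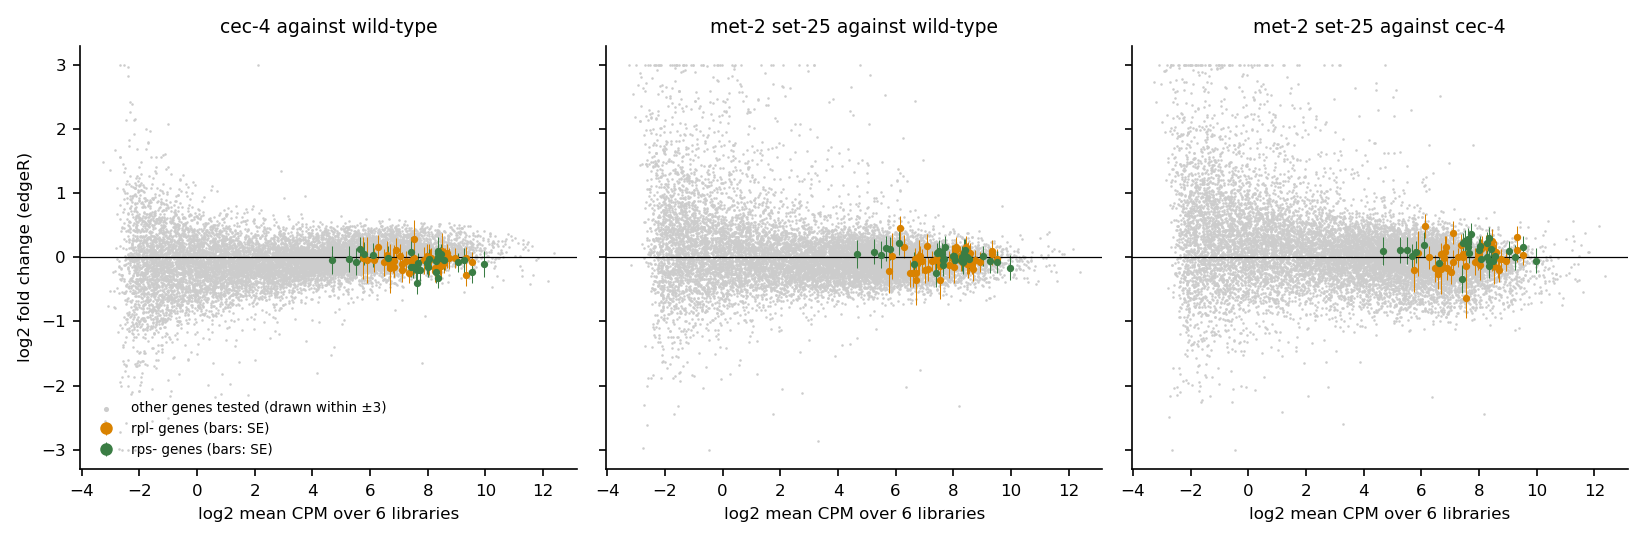
edgeR log2 fold change against log2 mean CPM in the 3 comparisons, with rpl- and rps- genes coloured over all other tested genes in grey (values beyond 3 drawn at the edge). The 75 genes lay between -0.64 and 0.49 in every panel.

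The comparisons with wild-type share the same 2 wild-type libraries, so their values are not independent of each other. At most 0.659% of all genes tested were called in a direction in any comparison, so 75 genes would mostly hold no call. The counts of 0 are therefore no result about the family. How large an undetected change could be is bounded by the 95% intervals of the fold changes. The standard error had a median of 0.175 for the 75 genes, beside 0.285 for all genes tested, on the log2 scale. In cec-4 against wild-type the interval lay within 2-fold to either side for 74 of the 75 genes, with rpl-25.1 outside, and within 1.5-fold for 56. In met-2 set-25 over wild-type it lay within 2-fold for 73, with rpl-25.1 and rpl-4 outside, and within 1.5-fold for 55. Between met-2 set-25 and cec-4 the counts were 73, with the same pair of genes outside, and 46.

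Cultures of the same genotype also differed from each other. The median absolute log2 difference of culture 2 over culture 1 was 0.11 in cec-4, 0.17 in met-2 set-25 and 0.19 in wild-type for the 75 genes, beside 0.23, 0.22 and 0.33 for all genes tested. A difference over 0.5 was found for 4 of the 75 genes (5.33%) in cec-4, against 14.7% of all genes tested. It was found for 0 in met-2 set-25, against 16.1%, and for 13 (17.3%) in wild-type, against 30.1%.

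The 5 genes of largest mean culture difference were all of the large subunit. rpl-25.1 (chromosome X, 4715178 to 4715796), a copy of the gene for a protein at the rim of the exit tunnel, had 85.4 and 121 CPM in cec-4, 77.8 and 104.3 CPM in met-2 set-25 and 67.0 and 166 CPM in wild-type cultures. Culture 2 was the higher in each genotype, and both the highest and the lowest value were those of wild-type. rpl-33, of the large subunit, had 47.4 and 67.5 CPM in cec-4, 52.7 and 67.2 CPM in met-2 set-25 and 37.1 and 81.3 CPM in wild-type, again with both extremes in wild-type.

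rpl-18, of the large subunit, had 44.7 and 68.4 CPM in cec-4, 48.2 and 49.8 CPM in met-2 set-25 and 37.9 and 76.1 CPM in wild-type cultures. rpl-5 had 321 and 448 CPM in cec-4, 314 and 384 CPM in met-2 set-25 and 266 and 452 CPM in wild-type. For both genes the cultures of met-2 set-25 were closer together than those of cec-4 and wild-type. rpl-4 was the exception in direction, since culture 2 was the higher in cec-4 and wild-type and the lower in met-2 set-25.

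Across the family, culture 2 was the higher in all 3 genotypes for 28 of the 75 genes (37.3%), against 25.1% of all genes tested. It was the lower in all 3 for 7 genes (9.33%), against 20.6% of all genes tested. These 7 were rps-12, rps-13, rps-23, rpl-11.1, rpl-12, rpl-24.2 and rpl-36.A, named here after their values were seen. In cec-4 and wild-type the genes that were higher in culture 2 tended to be those of lower level (Spearman's rho of the culture difference with mean TPM -0.54 in cec-4 and -0.38 in wild-type), while rho was -0.03 in met-2 set-25 (n = 75 genes, which share the libraries).

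Marker sums of other tissues differed by culture as well. The 8 body muscle genes summed to 667 and 1198 CPM in cec-4 cultures 1 and 2, to 670 and 873 CPM in met-2 set-25 and to 673 and 1235 CPM in wild-type. The 12 larval and adult cuticle genes, of which 4 passed the filter and 2 had no count in any library, summed to 1700 and 2224 CPM in cec-4, 1721 and 2736 CPM in met-2 set-25 and 1658 and 3384 CPM in wild-type. Most of that sum was the collagen gene dpy-17, with 1187 and 1506 CPM in cec-4, 1224 and 1895 CPM in met-2 set-25 and 1141 and 2311 CPM in wild-type cultures. In each genotype culture 2 had the higher sum of both lists, and their part in the culture differences of the ribosomal protein genes was not tested. The 23 maternal genes summed to 3469 and 3889 CPM in cec-4, 2964 and 2378 CPM in met-2 set-25 and 3672 and 2621 CPM in wild-type, so the second cec-4 culture had the most and the second met-2 set-25 culture the least.

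**Figure D4:**
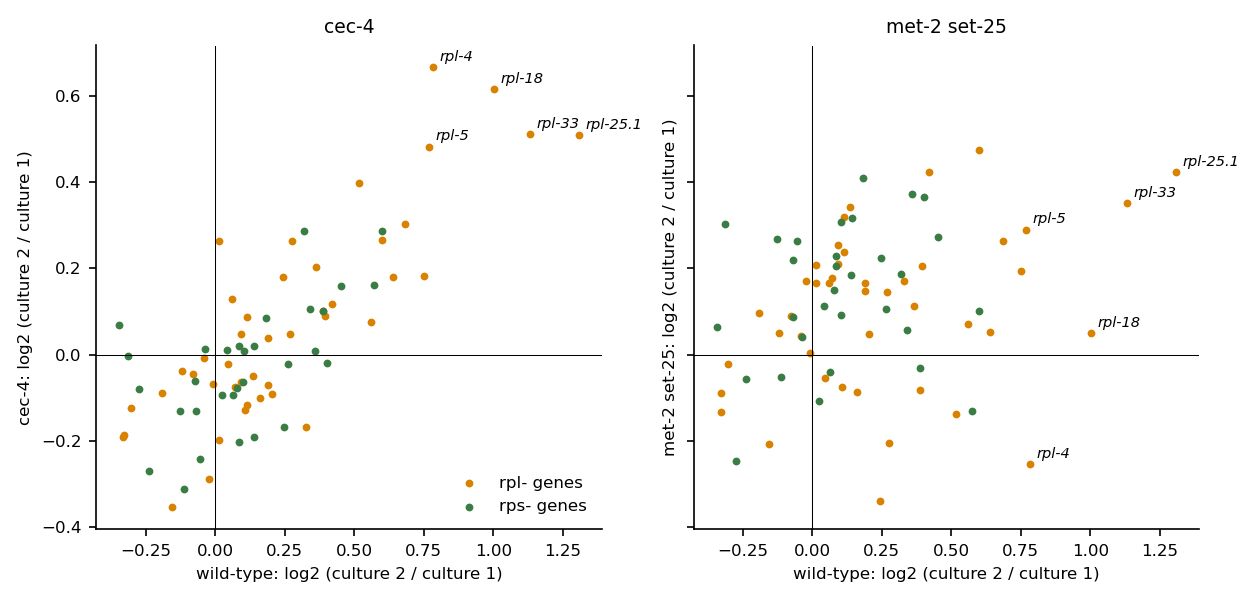
Log2 ratio of CPM (no pseudocount), culture 2 over culture 1, for each ribosomal protein gene in cec-4 and met-2 set-25 (vertical axes) against the same ratio in wild-type (horizontal axes). The largest wild-type ratio, 1.31, was that of rpl-25.1, whose ratio was 0.51 in cec-4 cultures and 0.42 in met-2 set-25 cultures.

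Pairs of copies with the same number divided their level unequally. Over the rpl-11 pair, rpl-11.1 held 21.02 ± 2.51% of the summed TPM in cec-4, 28.4 ± 5.11% in met-2 set-25 and 21.3 ± 6.08% in wild-type cultures (SD, n = 2 each). Its share was 32.1% and 24.8% in the met-2 set-25 cultures, against 25.6% and 16.96% in the wild-type cultures, so the groups overlapped. rpl-11.2, on the X chromosome, had log2 fold changes of -0.05 (SE 0.211) in cec-4 against wild-type and -0.12 (SE 0.211) in met-2 set-25 over wild-type, and neither passed the test.

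In the rpl-25 pair the X-linked copy rpl-25.1 held 28.0 ± 4.54% in cec-4, 23.4 ± 2.42% in met-2 set-25 and 29.0 ± 10.3% in wild-type (SD, n = 2 each). The other copy, rpl-25.2 on chromosome I, was steadier, with 725 and 776 TPM in cec-4, 769 and 880 TPM in met-2 set-25 and 657 and 847 TPM in wild-type cultures. rpl-24.1 held 44.04 ± 5.49% of its pair in cec-4, 40.7 ± 1.48% in met-2 set-25 and 41.0 ± 6.42% in wild-type (SD, n = 2 each), less than its partner in every library. That partner, rpl-24.2, is related to a factor that acts in large subunit assembly in yeast rather than in the finished ribosome. How reads that match both copies of a pair were counted is not stated, so these divisions are uncertain.

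**Figure D5:**
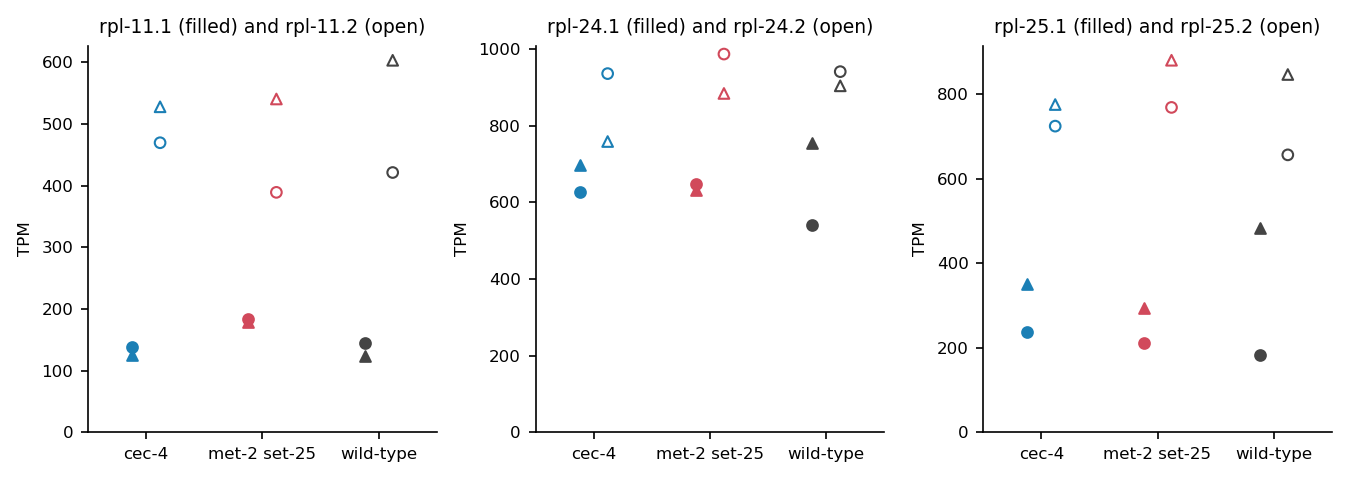
TPM of rpl-11.1 and rpl-11.2, rpl-24.1 and rpl-24.2, and rpl-25.1 and rpl-25.2 by genotype (filled symbols, rpl-11.1, rpl-24.1 and rpl-25.1; open symbols, their partners; circles, culture 1; triangles, culture 2). rpl-11.2, rpl-24.2 and rpl-25.2 lay above their partners in every culture.

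Other genes of translation were read beside the ribosomal protein genes. By edgeR's quasi-likelihood test, 0 of 6 stalk, ubiquitin fusion and RACK1 genes, 36 initiation factor genes, 20 aminoacyl-tRNA synthetase genes, 10 elongation and release factor genes, 38 ribosome biogenesis and RNA polymerase I genes and 69 mitochondrial ribosomal protein genes passed in any comparison. With at most 0.659% of all genes tested called in a direction, lists of this size would mostly hold no call, so the counts are no result about the lists.

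In cec-4 against wild-type the median log2 fold changes were -0.09 for the stalk, ubiquitin fusion and RACK1 genes (1 of 6 positive), 0.07 for initiation factors (28 of 36), 0.09 for synthetases (20 of 20), 0.10 for elongation and release factors (10 of 10), 0.10 for biogenesis genes (31 of 38) and -0.05 for mitochondrial ribosomal protein genes (23 of 69). Of all genes tested 45.3% were positive. These counts also hung on single libraries: with each culture left out in turn, 8 to 20 of the 20 synthetase genes, 14 to 33 of the 36 initiation factor genes, 20 to 38 of the 38 biogenesis genes and 3 to 53 of the 69 mitochondrial genes were positive, and 1 to 4 and 7 to 10 of the stalk and elongation lists. The lowest count of the synthetase, initiation, biogenesis and mitochondrial lists was the one without wild-type culture 2.

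In met-2 set-25 over wild-type, where 45.9% of all genes tested were positive, the counts were 1 of 6, 16 of 36, 7 of 20, 6 of 10, 5 of 38 and 42 of 69 for the lists in that order. Between met-2 set-25 and cec-4, where 51.6% of all genes tested were positive, they were 4 of 6, 12 of 36, 1 of 20, 5 of 10, 5 of 38 and 47 of 69. With each culture left out, the biogenesis genes had 3 to 26 positive values in the comparison with wild-type and 0 to 13 in that with cec-4, with the highest of both without met-2 set-25 culture 2. Against wild-type the other lists had 1 (stalk), 8 to 26 (initiation), 3 to 16 (synthetases), 6 to 8 (elongation) and 18 to 51 (mitochondrial). Against cec-4 they had 2 to 4, 7 to 15, 0 to 6, 4 to 5 and 28 to 58 in that order. How these lists differ from the ribosomal protein genes was not tested.

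By smallest p these lists were led by genes that did not pass. The translation factor gene iff-1 had a log2 fold change of 0.54 (SE 0.189, adjusted p = 0.57 by edgeR's quasi-likelihood test) in met-2 set-25 over wild-type. For ife-1 it was 0.53 (SE 0.183, adjusted p = 0.407 by the same edgeR quasi-likelihood test) between met-2 set-25 and cec-4. The elongation factor gene eef-1A.2 had -0.93 and the initiation list's clu-1 had -0.48 between met-2 set-25 and cec-4. In the same comparison the values were -0.82 for ncl-1, known as a repressor of nucleolar size, -0.59 for pro-3, -0.43 for the synthetase gene wars-1, -0.30 for cars-1, 0.37 for mrps-14, -0.30 for mrps-35 and 0.18 for the stalk gene rla-2. The ubiquitin fusion gene ubl-1 had -0.19 in met-2 set-25 over wild-type.

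Of the 23 maternal genes, 21 were tested and 0 passed, with median log2 fold changes of 0.19 in cec-4 against wild-type, -0.27 in met-2 set-25 over wild-type and -0.46 in met-2 set-25 against cec-4. These ran from 0.05 to 0.52, from -0.43 to 0.02 and from -0.56 to -0.25 with each culture left out. The maternal genes par-1 and puf-5 had -0.97 and -0.71 in met-2 set-25 against cec-4. The part of the embryos' stages in the values of the ribosomal protein genes was not tested.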

How the data were processed

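The authors deposited raw read counts per gene, raw counts per 500 bp window and log2 values. Recomputation showed that the deposited log2 values were made by scaling counts to the mean total and adding 8 before the logarithm. Per the labels' protocols, ribosomal RNA was depleted from 5 µg of total RNA (Ribo-Zero), ScriptSeq v2 libraries were made from 50 ng, and sequencing ran for 51 cycles in pools of 3. For the aligner, counter, build, use of strand and pool membership, no source used here gives details. Deposited gene widths are multiples of 3 for 96.63% of genes, so they are treated as coding lengths. Identifiers were matched to the WBcel235 annotation (18778 with a symbol). Windows were used only for the library checks.

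edgeR 4.0.16 in R 4.3.3 was run on the deposited counts of all 6 libraries (filterByExpr by genotype, TMM, quasi-likelihood test, Benjamini-Hochberg over 13951 genes, threshold 0.05). CPM uses TMM-scaled totals. TPM was computed from counts and widths. SE was taken from the fold change and the F statistic (its size over the root of F). Culture differences use log2(CPM + 0.5), except in the plot of culture differences and the choice of the 5 largest (no pseudocount). The biological coefficient of variation was 21.7%. Wilson intervals and floors cover counting error only, since reads carry no molecular identifiers. DESeq2 1.42.0, limma 3.58.1, other scalings, filters, a replicate block and each culture left out were alternatives.

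Named were the deleted genes, the 8 genes of highest and of lowest mean TPM, the 5 of smallest p per comparison, the 5 of largest mean culture difference, copies sharing a number, and, of the translation and maternal lists, the 2 genes of smallest p over the comparisons. The rule also covers the remaining marker lists. Of these, the body muscle, cuticle, adult intestine and zygotic lists are given only as sums or single markers. The germline, sperm and neuron lists are not described above. Among their genes, the sperm gene nspd-7 passed in met-2 set-25 over wild-type (log2 fold change 3.17) and over cec-4 (3.18). The germline gene syp-1 passed in met-2 set-25 over cec-4 (1.31). Genes without overlap are listed beside the counts, outside that rule, as are the stage markers. Members and lists were chosen with earlier results of these data known.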

Additional observations from a re-analysis of the deposited data

How the results depend on the processing

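No ribosomal protein gene passed under any of 16 alternative settings per comparison. The lowest adjusted p was 0.792 in cec-4 against wild-type, 0.295 in met-2 set-25 over wild-type and 0.195 in met-2 set-25 against cec-4, and at most 3, 8 and 5 genes had an unadjusted p under 0.05. With each culture left out in turn, the median log2 fold change of the 75 genes ran from -0.15 to 0.034, from -0.08 to 0.07 and from -0.02 to 0.12 in the same comparisons. With limma on the authors' log2 values the medians were -0.10, 0.02 and 0.15, and with upper quartile scaling -0.09, 0.00 and 0.10. Over a total without these genes and the 10 most abundant others, the share of counts was 1.94% in cec-4, 2.17% in met-2 set-25 and 2.14% in wild-type. The cec-4 share was 1.78% to 1.90% over single cultures. Without wild-type culture 2, the values of rpl-4, rpl-31 and rps-6 in met-2 set-25 over wild-type turned to 0.10, 0.075 and 0.10, so that over single left-out cultures they ran from -0.70 to 0.10, from -0.50 to 0.075 and from -0.52 to 0.10. Counts of genes whose groups do not overlap were recomputed under other scalings, and the other lists with each culture left out, both choices made after seeing the data. In cec-4 against wild-type 2 genes were higher with the DESeq2 size factor method and 0 with upper quartile scaling and with raw totals. In met-2 set-25 over wild-type 6, 1 and 1 were lower under these scalings, and with raw totals met-2 set-25 against cec-4 gave 35 higher and 2 lower genes. The cause of these shifts was not tested. Culture numbers are shared between genotypes but nothing in the labels pairs them. Over all genes tested, culture differences correlated with Pearson's r of 0.66 between cec-4 and wild-type, 0.33 between met-2 set-25 and wild-type and 0.18 between met-2 set-25 and cec-4. Over the 75 ribosomal protein genes r was 0.79, 0.25 and 0.10 in that order. With a replicate block the medians were -0.04, -0.02 and 0.04 and 0 genes passed.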
